A study of Homo sapiens with 10 samples.

Results

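Genes that SKBR3 and MDA-468 breast cancer cells both expressed were compared for how they responded to a duplex against Che-1. A gene was taken as co-expressed where its mean siControl log2 value was at least 7 in each line, read from the probe set with 1 gene symbol and the highest mean. There were 8359 such genes among the 18417 genes with a named probe set. A further 324 genes reached that level in SKBR3 alone, 2071 in MDA-468 alone, and 7663 in neither. The level was applied so that a low starting point in 1 line would not by itself set the lines apart. It was stricter for SKBR3, whose array medians were 6.36 to 6.46 against 6.87 to 6.94 in MDA-468. The siControl arrays that chose the genes also enter every change reported below.

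Total RNA was measured on Affymetrix whole-transcript arrays 48 h after transient transfection. The groups were SKBR3 with siControl (n = 2), SKBR3 with siChe-1 (n = 2), MDA-468 with siControl (n = 3) and MDA-468 with siChe-1 (n = 3). siControl is a control double-stranded RNA oligonucleotide, siChe-1 is the duplex against Che-1, the product of AATF, and the labels describe both lines as expressing mutant p53. Each is a single established cell line, the labels name 1 reagent against Che-1, and they do not say whether replicates were separate cultures, so p-values cover the spread between these arrays, which may be technical. Effects of AATF loss and of introducing this duplex cannot be told apart.

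The Che-1 protein works in the nucleus and nucleolus, where it contacts the RNA polymerase that makes mRNA and has been tied to transcription, to repair of damaged DNA and to the making of ribosomes. SKBR3 is a line with amplified ERBB2 and luminal features, and MDA-468 is a basal-like line with high EGFR. Double-stranded RNA inside cells can be sensed by antiviral receptors and by the kinase PKR, which start interferon and stress responses. The comparison therefore asks which parts of the response to one duplex were common to the lines and which were not.

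ERBB2 was higher in the line labelled SKBR3, at 12.33 in SKBR3 siControl and 8.29 in MDA-468 siControl. EGFR was higher in MDA-468, at 7.91 and 12.25. GRB7 went with ERBB2, at 10.30 and 7.89, and KRT5 with EGFR, at 7.58 and 12.47. Other luminal markers hardly separated the lines with siControl. SPDEF was at 9.94 and 9.99, FOXA1 at 9.08 and 9.09, and KRT19 at 12.93 and 12.98. KRT8 was at 12.89 and 12.67, KRT18 at 12.67 and 12.48, and TFAP2B was low in both, at 4.98 and 5.41. The basal keratin KRT14 was at 7.52 and 8.08. The epithelial marker CDH1 was low in SKBR3, at 5.12 against 10.20 in MDA-468. None of the 6 immune or 5 endothelial markers measured and 1 of 6 fibroblast markers was co-expressed. The mean over the immune list was 4.59 to 4.70 with siControl and 4.95 to 5.14 with siChe-1 in SKBR3. In MDA-468 it was 5.38 to 5.5 and then 5.58 to 5.61. Single markers were higher: CD14 was at 9.51 and then 10.15 in MDA-468, and KDR at 6.60 and then 7.13. CD68 was at 6.89 and then 8.38 in SKBR3, and at 6.88 and then 7.34 in MDA-468. Replicates correlated with r = 0.978 in SKBR3 siChe-1 and with 0.990 or more in the other groups. The root mean square SD within a group was 0.235 in SKBR3 siChe-1, against 0.143 with siControl in that line, and 0.103 with siControl and 0.126 with siChe-1 in MDA-468.

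AATF, the targeted gene, was itself co-expressed. Its log2 values in SKBR3 were 8.69 and 8.68 with siControl and 8.09 and 7.97 with siChe-1. In MDA-468 they were 8.86, 8.87 and 8.91 with siControl and 7.08, 7.13 and 7.29 with siChe-1. Every siChe-1 array lay below every siControl array of its line. AATF fell by 0.66 ± 0.10 (SE of the fit) in SKBR3 and by 1.71 ± 0.08 in MDA-468, and the difference of 1.05 (95% interval 0.78 to 1.33) passed the test (limma, adjusted p = 0.000215). The deeper fall of AATF in MDA-468 accompanies every difference below, and the line and the depth of the fall cannot be told apart.

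For each gene, the difference between lines is the siChe-1 minus siControl change in SKBR3 minus the same change in MDA-468, both in log2 units, so a positive value means a higher change in SKBR3. It was tested with limma over all 12892 genes that passed the filter on low values, with Benjamini-Hochberg adjustment, and a gene with an adjusted p under 0.05 is called. All 8359 co-expressed genes had passed that filter. Of them, 1693 (20.3%) were called, against 19.2% of all genes tested. The SKBR3 change was higher for 732 (8.76%, against 8.49% of all genes tested) and lower for 961 (11.5%, against 10.7%). Among the tested genes that were not co-expressed, 778 (17.2%) were called. The share of called genes was thus near the background. Of the 1693, 199 differed by at least 1 log2 unit (2.38%, against 3.69% of all genes tested), 79 of them higher and 120 lower.

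This balance between higher and lower calls rested on the SKBR3 siChe-1 arrays. Without replicate 1 of that group, 2906 genes were called, 819 higher and 2087 lower. Without replicate 2, 1770 were called, 1025 higher and 745 lower, so that the majority turned. Without SKBR3 siControl replicate 2, 910 genes were called, without MDA-468 siControl replicate 2, 1073, and without MDA-468 siChe-1 replicate 2, 1113. With a variance of its own for each group, 985 genes were called, 359 higher and 626 lower. Calls shared with the full fit kept their direction in each of these 6 fits. These fits reuse most or all of the same arrays, so this was near certain beforehand and is no support.

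Within the lines, 2356 co-expressed genes (28.2%, against 23.7% of all genes tested) passed the test in SKBR3, with 451 higher and 1905 lower (6.64% and 17.1% of all genes tested). In MDA-468, 4152 (49.7%, against 43.5%) were called, 1305 higher and 2847 lower (16.4% and 27.0%). MDA-468 had 6 arrays and SKBR3 4, so the counts are not equally sensitive. The median change over co-expressed genes was -0.16 in SKBR3 and -0.10 in MDA-468, beside -0.08 and -0.02 over all genes tested. Without SKBR3 siChe-1 replicate 1 the SKBR3 count was 4006, without replicate 2 it was 1220, without SKBR3 siControl replicates 1 and 2 it was 1510 and 898, and with a variance for each group it was 796.

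**Figure D1:**
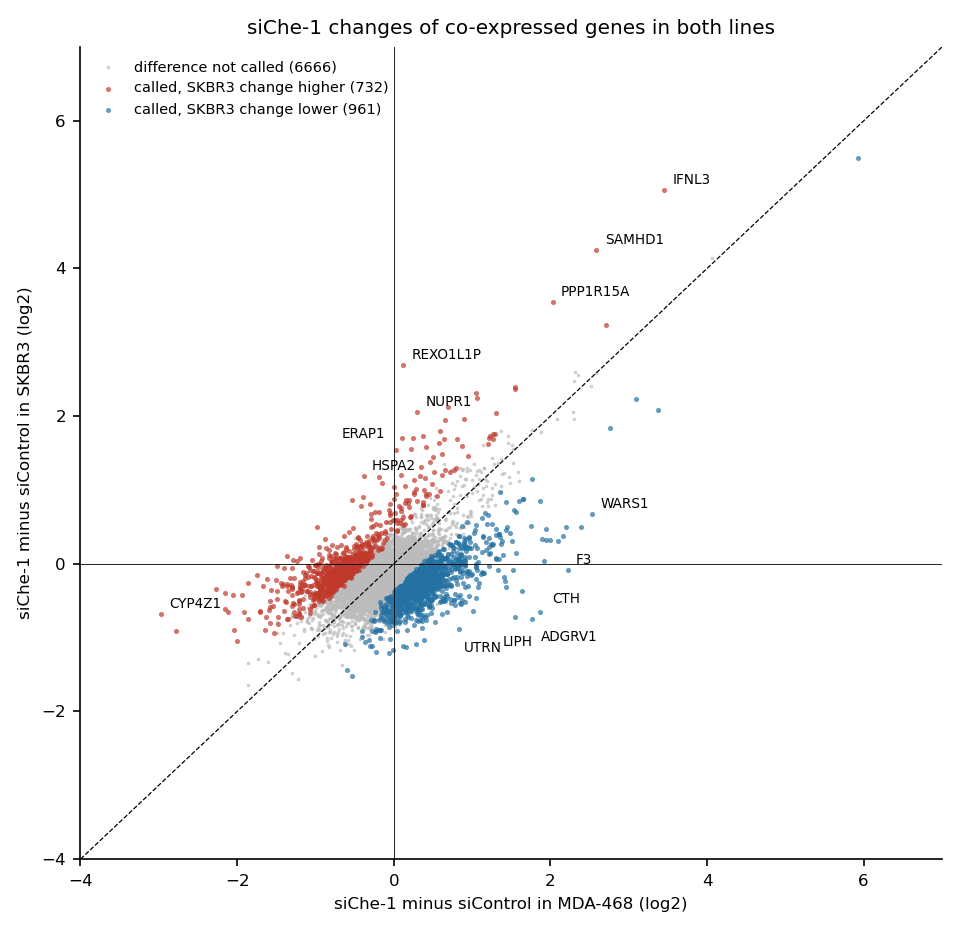
Each point is 1 of the 8359 co-expressed genes, with its siChe-1 minus siControl change in MDA-468 on the horizontal axis and in SKBR3 on the vertical axis, both in log2 units. Red marks the 732 genes called with a higher and blue the 961 called with a lower change in SKBR3. Genes on the dashed line changed equally, and by definition all blue points lie to the right of it. The blue points lie mainly where MDA-468 values are above 0 and SKBR3 values near or below 0.

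Most of the called differences came from genes called in 1 line. Among the 1693, 484 were higher in MDA-468 and not called in SKBR3, 480 were lower in MDA-468 and not called in SKBR3, 273 were lower in SKBR3 alone and 54 higher in SKBR3 alone. A gene that is called in 1 line is not thereby shown to be unchanged in the other. A further 230 were called in the same direction in both lines and differed in size, 126 were called in opposite directions, and 46 were called in neither line. In all, 1406 co-expressed genes were called in the same direction in both lines. Apart from the opposite class, given below, no shares over all genes tested were counted for these classes. The counts therefore do not show whether they are particular to co-expressed genes.

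Promoters of genes with the largest differences are shown first, to show where 2 of 10 short motifs searched lie; most promoters of genes called with a difference of at least 1 hold neither. RefSeq promoter entries were available for 6857 co-expressed genes, including 59 of the 79 called higher and 100 of the 120 called lower by at least 1. Motifs were searched on both strands from 250 bases before to 50 bases after the start site. GAAA followed after any 2 bases by GAAA, the core of the element bound by interferon-regulated factors, was present in 6 of the 59 (10.2%), in 2.42% of co-expressed genes, in 2 of the 100 called lower and in 3.65% of all 27305 promoters in the table. Over all genes called higher, of any size, it was in 29 of 606 promoters (4.79%), and over all called lower in 16 of 813 (1.97%). The 6 genes among the 59 were IFNL3, ERAP1, PSMB10, OGFR, TRIM14 and GLUL. The 3 of them with the largest differences are printed from 200 bases before to 20 bases after the start site, 5′ to 3′ on the gene's strand (RefSeq, GRCh38.p14), with the match on either strand in capitals. They lie at chr19:39245231-39245450 (minus strand), chr5:96807926-96808145 (minus) and chr16:67936831-67937050 (minus).
IFNL3: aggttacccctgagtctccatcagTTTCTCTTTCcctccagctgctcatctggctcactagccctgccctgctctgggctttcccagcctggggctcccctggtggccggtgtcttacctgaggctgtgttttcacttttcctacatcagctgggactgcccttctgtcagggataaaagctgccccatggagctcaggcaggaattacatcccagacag
ERAP1: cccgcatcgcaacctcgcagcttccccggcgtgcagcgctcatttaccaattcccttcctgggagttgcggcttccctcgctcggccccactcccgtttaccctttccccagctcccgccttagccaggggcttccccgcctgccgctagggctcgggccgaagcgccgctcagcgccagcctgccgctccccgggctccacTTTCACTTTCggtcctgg
PSMB10: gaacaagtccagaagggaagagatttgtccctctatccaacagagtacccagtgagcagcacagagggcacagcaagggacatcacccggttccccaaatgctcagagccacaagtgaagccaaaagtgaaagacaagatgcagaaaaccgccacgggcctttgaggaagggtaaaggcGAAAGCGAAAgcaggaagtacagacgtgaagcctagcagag

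The site TGACGTCA, the palindrome recognised by CREB and ATF factors, was present in 8 of the 100 promoters of genes called lower by at least 1 (8.0%). It was in 1.69% of those called higher by at least 1, in 3.59% of co-expressed genes and in 1.98% of all promoters. Over all genes called lower, of any size, it was in 33 of 813 (4.06%), near the co-expressed share. Over all called higher it was in 14 of 606 (2.31%). TATAAA was present in 12 of the 100 (12%), against 5.19% of co-expressed genes, 8.47% of those called higher by at least 1 and 12% of all promoters. Over all genes called lower it was in 6.77%, and over all called higher in 5.94%. Counts for the other 7 motifs searched follow, over the 59, the 100 and the co-expressed genes. The AP-1 type site TGANTCA was in 2, 5 and 3.72%, the CCAAT box in 23, 45 and 38.1%, and the E-box CACGTG in 3, 11 and 11.2%. The GC box GGGCGG was in 37, 67 and 73.0%, the stress response site TGATGNAA in 1, 0 and 1.5%, the E2F type site TTTNGCGC in 1, 5 and 3.51%, and a kappaB type site in 1, 1 and 0.525%. The palindrome occurred in H4C8, H2BC14, ZBTB21, STK38L, POT1, BBS7, ZGRF1 and DUSP1. The 3 with the largest differences are printed in the same way, at chr6:26285515-26285734 (minus), chr6:27814822-27815041 (plus) and chr21:42010341-42010560 (minus).
H4C8: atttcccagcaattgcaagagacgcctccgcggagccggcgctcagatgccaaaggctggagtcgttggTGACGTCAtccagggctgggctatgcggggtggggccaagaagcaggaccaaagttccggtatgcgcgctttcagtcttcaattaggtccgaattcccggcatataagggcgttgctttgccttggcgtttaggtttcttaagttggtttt
H2BC14: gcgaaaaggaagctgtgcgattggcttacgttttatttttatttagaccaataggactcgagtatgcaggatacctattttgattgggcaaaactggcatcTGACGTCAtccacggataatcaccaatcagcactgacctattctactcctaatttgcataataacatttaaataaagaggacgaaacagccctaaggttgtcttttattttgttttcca
ZBTB21: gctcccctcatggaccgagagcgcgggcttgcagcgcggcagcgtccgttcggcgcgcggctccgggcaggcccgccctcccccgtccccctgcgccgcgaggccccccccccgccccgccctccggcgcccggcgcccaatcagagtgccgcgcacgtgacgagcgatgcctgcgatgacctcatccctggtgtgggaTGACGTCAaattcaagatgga

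H2BC14, a histone H2B gene, changed by -0.46 in SKBR3 and 1.05 in MDA-468, and ZBTB21, a zinc finger repressor, by -0.12 and 1.15. Among the interferon-type promoters, IFNL3, a type III interferon that is near-identical to IFNL2, rose in both lines. Its SKBR3 log2 values were 8.06 and 7.48 with siControl and 12.82 and 12.84 with siChe-1, and its MDA-468 values were 7.73, 8.01 and 7.71 and then 11.29, 11.33 and 11.19. The siChe-1 arrays thus lay far above the siControl arrays in both lines, and further in SKBR3: the rise was 5.06 ± 0.17 there and 3.45 ± 0.14 in MDA-468, a difference of 1.61 (limma, adjusted p = 0.000503). A motif match describes these letters and is no evidence of binding.

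Only 6 genes, picked out by size after their values were seen, differed by 2 log2 units or more and were called. They are among the 10 highest and 10 lowest differences, which were named only if the arrays did not overlap in the line with the larger change. Absence of overlap in that line was therefore fixed by the rule. CTH encodes cystathionine gamma-lyase, which makes cysteine from cystathionine. Its log2 values in SKBR3 were 7.13 and 7.45 with siControl and 7.0 and 6.28 with siChe-1. In MDA-468 they were 7.54, 7.47 and 7.36 and then 9.24, 9.28 and 9.43. CTH was higher on every siChe-1 array of MDA-468 and lower on both of SKBR3 than on any control array of the line. The difference was -2.51 ± 0.25 (adjusted p = 8.05e-05).

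ADGRV1, a very large adhesion G protein-coupled receptor, showed the same pattern. In SKBR3 it measured 7.32 and 7.55 with siControl and 6.87 and 6.52 with siChe-1, and in MDA-468 8.11, 8.02 and 7.88 and then 9.58, 9.73 and 10.01. The groups did not overlap in either line, and the difference was -2.51 ± 0.21. LIPH, a membrane-associated phospholipase that releases lysophosphatidic acid, had SKBR3 values of 7.45 and 7.62 with siControl and 7.10 and 6.53 with siChe-1. In MDA-468 its siControl values were 8.17, 8.07 and 8.04 and its siChe-1 values 9.64, 9.65 and 9.66, a difference between lines of -2.27 ± 0.20. LIPH was therefore low on the SKBR3 and high on the MDA-468 siChe-1 arrays, again without overlap.

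F3, tissue factor, the cell-surface starter of coagulation, moved in MDA-468. Its values there were 9.11, 8.99 and 9.09 with siControl and 11.17, 11.30 and 11.37 with siChe-1, and in SKBR3 8.46 and 8.44 and then 8.45 and 8.28. The SKBR3 groups overlapped and the change there was -0.08; the difference between lines was -2.30 ± 0.13 (adjusted p = 1.87e-06).

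On the other side, REXO1L1P, a pseudogene of a multicopy family whose probes cannot be assigned to 1 copy, measured 8.16 and 7.97 with siControl and 10.60 and 10.91 with siChe-1 in SKBR3. In MDA-468 it measured 6.84, 7.14 and 7.14 and then 7.22, 7.12 and 7.13, where the groups overlapped, close to the level of 7 that chose the genes. The difference was 2.57 ± 0.17. CYP4Z1, a mammary cytochrome P450 with a close pseudogene copy, fell in both lines and more in MDA-468. Its values were 7.74 and 7.70 and then 7.04 and 7.04 in SKBR3, and 10.59, 10.61 and 10.44 and then 7.58, 7.65 and 7.48 in MDA-468. With siChe-1 both lines thus held CYP4Z1 near 7 to 8, from start levels that differed widely, and the difference in change was 2.29 ± 0.12.

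**Figure D2:**
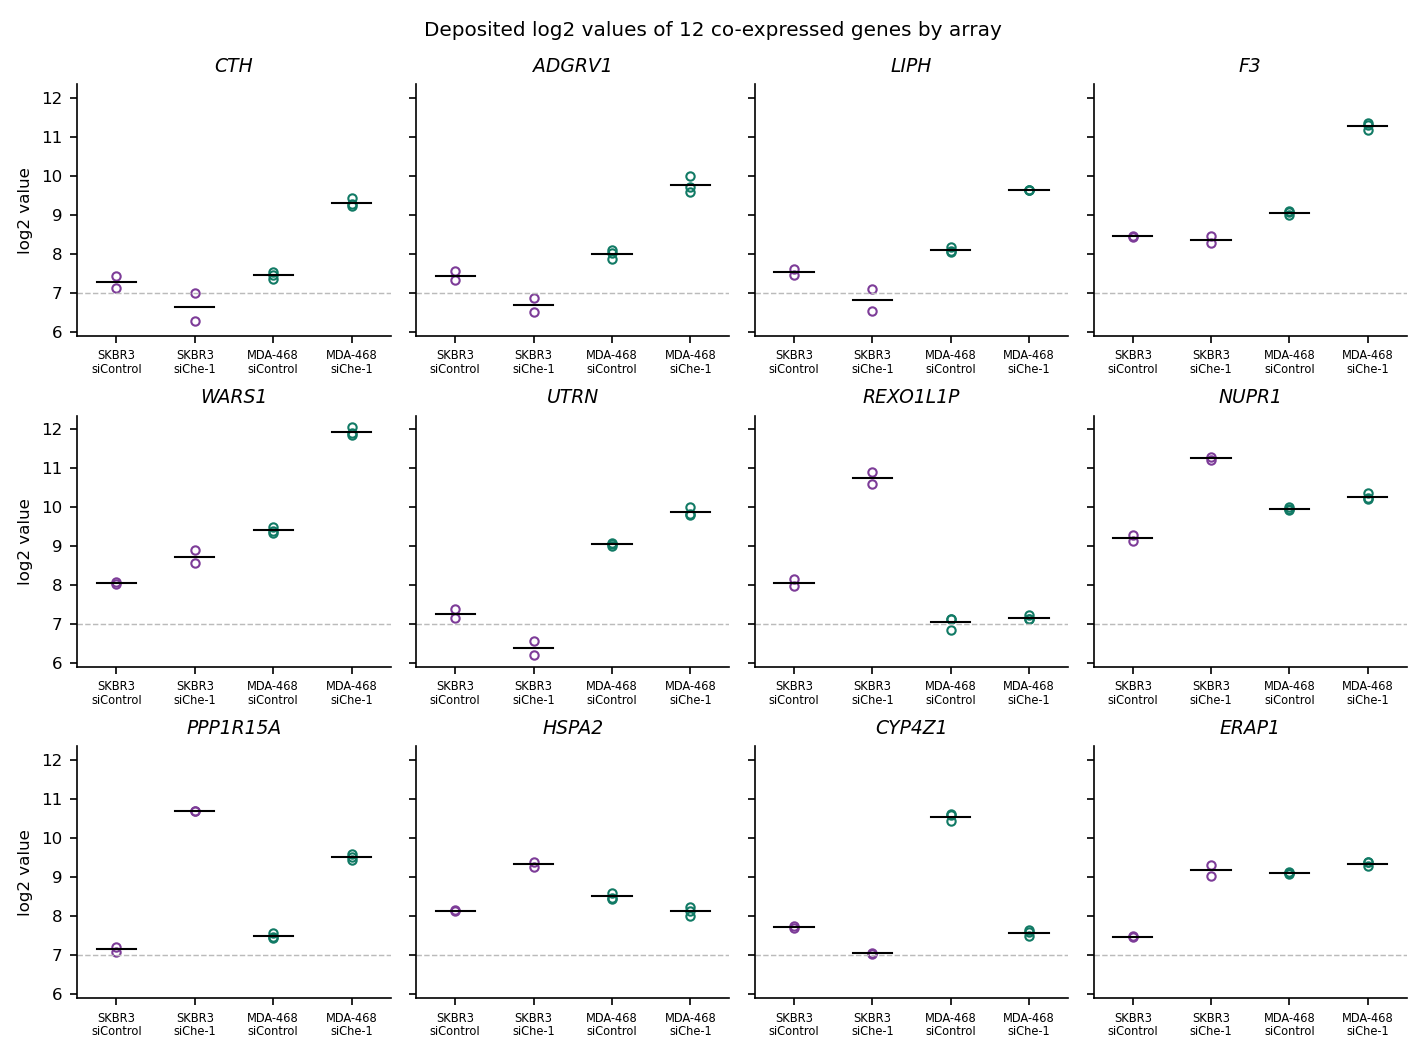
Each circle is 1 array, on a vertical axis of deposited log2 values, for 12 co-expressed genes in the 4 groups (purple, SKBR3; green, MDA-468; black bars, group means; dashed line, the level of 7). CTH, ADGRV1, LIPH and UTRN were lower with siChe-1 in SKBR3 and higher in MDA-468, whereas NUPR1 and ERAP1 rose mainly in SKBR3.

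Several of the 10 highest differences came from a fall in MDA-468. SCGB2A2, mammaglobin A, measured 8.62, 7.97 and 7.95 with siControl and 5.85, 5.73 and 6.18 with siChe-1 in MDA-468, and 9.43 and 9.52 and then 9.25 and 9.02 in SKBR3. It fell by 2.26 in MDA-468, while its change in SKBR3 was -0.34 and was not called. CRISP3, a cysteine-rich secretory protein, fell in both lines, by 0.91 in SKBR3 and by 2.78 in MDA-468, from a siControl mean of 7.32 and 10.28. SELENOP, the plasma selenium carrier, CREB3L4, a membrane-bound transcription factor of the endoplasmic reticulum, and HSD17B2, which oxidises estradiol, fell by 2.15, 2.05 and 1.87 in MDA-468. Their SKBR3 changes were -0.40, -0.43 and -0.26, of which the CREB3L4 fall was called. All 5 differences lay between 1.61 and 1.92. Beside them, the mean over 8 luminal markers measured was 9.85 on every MDA-468 siControl array and 9.39 to 9.59 with siChe-1. In SKBR3 it was 10.56 to 10.72 and then 10.57 to 10.61. The markers did not move together in MDA-468. SPDEF went from 9.99 to 8.32 and FOXA1 from 9.09 to 8.35, and ERBB2, KRT19 and TFAP2B were lower by less. KRT8 (12.67 and then 12.85), KRT18 (12.48 and then 12.68) and GRB7 (7.89 and then 7.98) were higher. The part of these markers in the changes was not tested.

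The remaining highest differences came from larger rises in SKBR3. NUPR1, a stress-induced chromatin protein, measured 9.28 and 9.13 with siControl and 11.22 and 11.30 with siChe-1 in SKBR3. In MDA-468 it measured 10.00, 9.94 and 9.95 and then 10.23, 10.35 and 10.21, so that it rose in both lines, by 2.05 and 0.30. SAMHD1, a triphosphohydrolase that depletes deoxynucleotides, rose by 4.25 ± 0.12 in SKBR3 and 2.59 ± 0.10 in MDA-468. Outside the 10 highest, PPP1R15A, the regulatory subunit of the phosphatase that reverses eIF2 alpha phosphorylation, had SKBR3 values of 7.08 and 7.21 and then 10.69 and 10.69, and MDA-468 values of 7.43, 7.56 and 7.47 and then 9.58, 9.44 and 9.51. With siChe-1 it was above every control array of its line, and it rose by 3.55 in SKBR3 and 2.03 in MDA-468.

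Among the lowest differences, the genes rose in MDA-468. ITGA2, the collagen-binding integrin alpha 2 subunit, measured 7.67, 7.70 and 7.80 with siControl and 9.26, 9.30 and 9.51 with siChe-1 in MDA-468, and 7.34 and 7.6 and then 7.26 and 6.95 in SKBR3. WARS1, the cytosolic tryptophanyl-tRNA synthetase, rose by 2.54 ± 0.10 in MDA-468 and 0.67 ± 0.12 in SKBR3. NOCT, a circadian phosphatase, rose by 2.39 in MDA-468, with 0.50 and no call in SKBR3. KLF10, a TGF-beta-inducible Krueppel-like factor, rose by 2.10 in MDA-468, with 0.31 and no call in SKBR3. The histone genes H4C8 and H2AC25, whose near-identical copies the probes may not separate, rose by 1.92 and 2.16 in MDA-468.

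Of the 126 genes called in opposite directions, 16 rose in SKBR3 and fell in MDA-468, and 110 the reverse; over all genes tested, 1.37% met this definition. The count was 30 without SKBR3 siControl replicate 2 and 425 without SKBR3 siChe-1 replicate 1, lay between 61 and 73 without SKBR3 siChe-1 replicate 2, SKBR3 siControl replicate 1 or each of MDA-468 siChe-1 replicates 2 and 3 and the 3 MDA-468 siControl replicates, and was 35 with a variance for each group. UTRN, the dystrophin relative utrophin, ranked first of the 110 by the smaller of its changes in the lines. Its values were 7.15 and 7.37 and then 6.57 and 6.19 in SKBR3, and 9.06, 8.99 and 9.07 and then 9.80, 9.82 and 10.01 in MDA-468. It fell by 0.88 in SKBR3 and rose by 0.84 in MDA-468, with no overlap in either line. CYTH3, an exchange factor for ARF proteins, fell by 0.65 in SKBR3 and rose by 0.68, and RAD51AP1 fell by 0.67 and rose by 0.61. RAD51AP1 measured 8.58 and 7.81 on the SKBR3 siChe-1 arrays, 1 of which lay close to the controls at 8.78 and 8.96.

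The 16 genes that rose in SKBR3 and fell in MDA-468 included small RNAs. The variant U1 snRNA RNVU1-15 measured 7.72 and 7.95 with siControl and 8.80 and 8.60 with siChe-1 in SKBR3, and 9.34, 9.30 and 9.10 and then 8.72, 8.57 and 8.85 in MDA-468. The groups did not overlap in either line, with siChe-1 above in SKBR3 and below in MDA-468. RNVU1-19 rose by 0.91 and fell by 0.40, RNU4ATAC, the U4atac RNA of the minor spliceosome, rose by 0.78 and fell by 0.42, and TERC, the telomerase RNA, rose by 0.49 and fell by 0.52. The SKBR3 rise of TERC, on arrays at 10.09 and 9.49 against controls at 9.36 and 9.25, was close to the threshold (adjusted p = 0.049). Of the 16, 12 were protein-coding; the 2 of them named by rank were TMEM150A, a membrane protein, at 0.43 and -0.58, and HSPA2, an HSP70 chaperone, at 1.19 and -0.39.

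These RNAs belong to 106 co-expressed small RNAs (snRNAs, snoRNAs, scaRNAs, miRNA precursors and like classes in RefSeq). Of the 106, 13 were called with a higher change in SKBR3 and 0 with a lower one (limma; 8.49% and 10.7% of all genes tested). SKBR3 had 24 higher and 0 lower (6.64% and 17.1% of all genes tested). MDA-468 had 18 higher and 6 lower (16.4% and 27.0%). The snoRNAs SNORD14E and SNORD14C, similar copies encoded in introns of HSPA8, changed by 1.71 and 1.05 in SKBR3 and by 0.11 and 0.00 in MDA-468. Without SKBR3 siControl replicate 1 the counts were 7 higher and 2 lower and the median difference turned from 0.07 to -0.04; without SKBR3 siChe-1 replicate 1 they were 15 and 5. With a variance for each group 8 were higher. Variant U1 genes and SNORD14 copies may share probe signal.

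Genes called for the difference that changed by at least 1 in 1 line, and by at most 0.25 without a call in the other, numbered 75 of 8359. Of these, 30 rose and 29 fell in MDA-468, and 9 rose and 7 fell in SKBR3. No share over all genes tested was counted for this class. MDA-468 had more arrays, and 49.7% of co-expressed genes were called there against 28.2% in SKBR3. The counts by line are therefore not equally sensitive. LMNB1, the nuclear lamina protein lamin B1, measured 10.56, 10.51 and 10.48 with siControl and 8.77, 8.74 and 8.81 with siChe-1 in MDA-468, and 9.53 and 9.57 and then 9.47 and 9.33 in SKBR3. It fell by 1.74 in MDA-468 and its SKBR3 change was -0.15. FTL, the ferritin light chain, which has processed copies in the genome, fell by 1.49 in MDA-468 with a SKBR3 change of -0.03. COX8A, a subunit of cytochrome c oxidase, fell by 1.37 in MDA-468 with a SKBR3 change of 0.10. ARRDC3, an arrestin-domain adaptor of receptor trafficking, was the protein-coding example in SKBR3, at 7.48 and 7.65 and then 9.38 and 8.85, against 10.15, 10.13 and 10.01 and then 10.07, 10.14 and 10.15 in MDA-468.

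The MDA-468 rises in this class, beside F3 and H4C8, included TIPARP, a mono-ADP-ribosyltransferase, KIFC3, a minus-end-directed kinesin, CLIP1, a microtubule plus-end protein, and the histone gene H2BC5. They rose by 1.42, 1.53, 1.41 and 1.33. Their SKBR3 changes were -0.24, -0.08, -0.18 and -0.09, none called. H2BC5 had the widest interval of these, -2.08 to -0.76 for the difference, and its call was lost with a variance for each group.

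Alike responses can be bounded as well. For 3033 co-expressed genes (36.3%) the 95% interval of the difference lay within -0.5 to 0.5, and the median half-width of that interval was 0.32. Among 163 genes called in both lines with a mean change of at least 1, 29 had such an interval, 27 rising and 2 falling. No shares over all genes tested were counted for the alike classes. USP18, the protease that removes ISG15, measured 8.29 and 8.08 and then 10.79 and 10.74 in SKBR3, and 8.82, 8.75 and 8.65 and then 11.34, 11.41 and 11.19 in MDA-468. It rose by 2.58 and 2.58, with an interval of the difference of -0.31 to 0.32. The antiviral genes ZNFX1 and ZC3HAV1 rose by 2.41 and 2.52, and by 2.55 and 2.35. JUN, an AP-1 subunit, rose by 2.06 and 2.29, and PLAUR, the urokinase receptor, by 1.78 and 1.88. The bound refers to the reported fit. Over the alternatives described below, the difference ran from -0.387 to -0.184 for JUN. It ran from -0.332 to -0.068 for ZNFX1 and from -0.272 to 0.252 for ZC3HAV1. LAP3, an aminopeptidase, ADM, the vasodilator peptide adrenomedullin, and RNF213, a large ubiquitin ligase, had intervals of -0.23 to 0.32, -0.20 to 0.39 and -0.21 to 0.28.

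**Figure D3:**
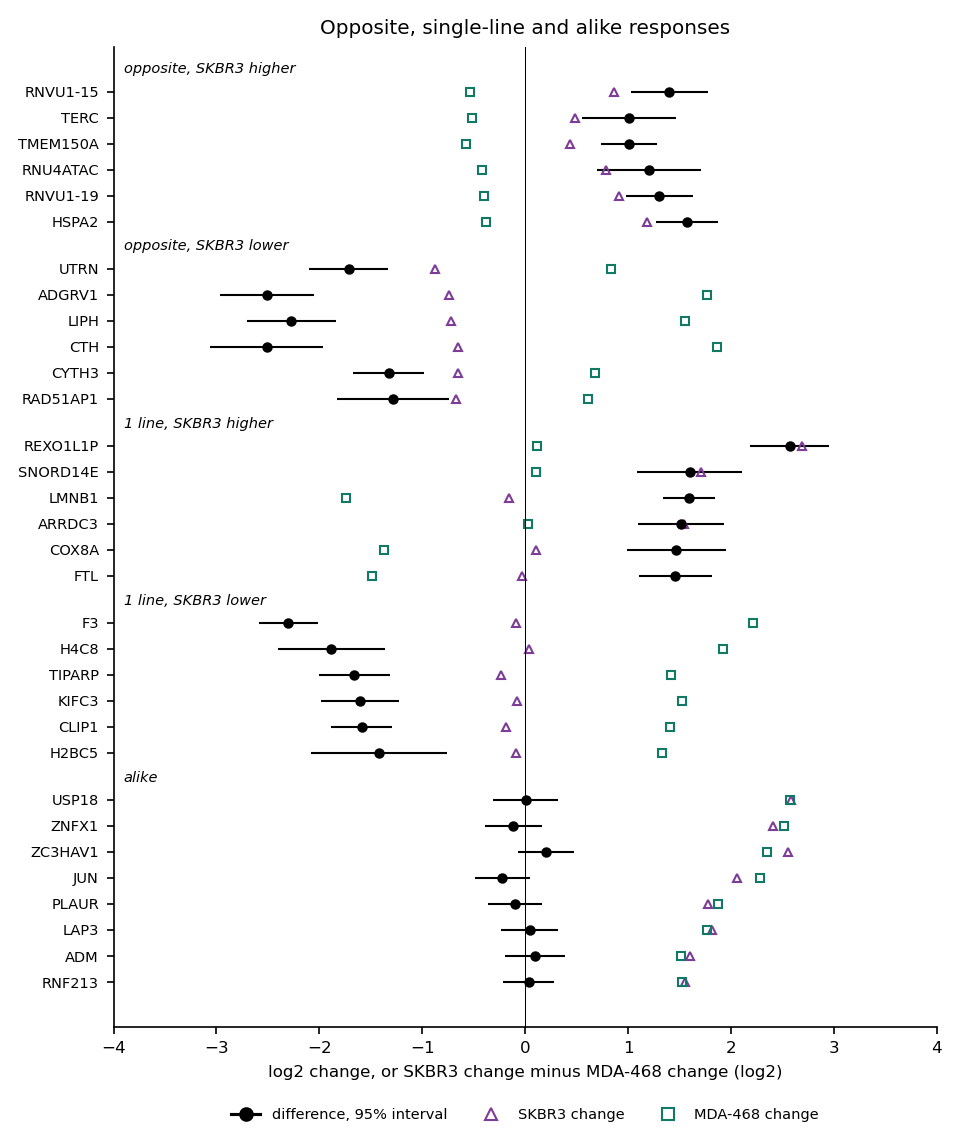
Black points and lines show the difference between lines (SKBR3 change minus MDA-468 change) with its 95% interval, and open triangles and squares the SKBR3 and MDA-468 changes, on one log2 axis, for the genes called in opposite directions, those changed in 1 line and those that changed alike. By the rules that chose the genes, the intervals of the 8 alike genes lie within -0.5 to 0.5, and those of the other genes do not include 0.

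The gene lists below were chosen with earlier results of these data known, so their counts are descriptions. Counts for the difference stand beside the 8.49% called higher and 10.7% called lower over all genes tested. Counts within a line stand beside 6.64% higher and 17.1% lower in SKBR3, and 16.4% and 27.0% in MDA-468. Among interferon-stimulated antiviral genes, 18 of 65 measured were co-expressed; the others were below 7 in at least 1 line. Of the 18, 14 rose in SKBR3 and 16 in MDA-468, with 1 lower in each line. Their median change was 1.71 in SKBR3 and 1.26 in MDA-468, and 6 were called with a higher and 1 with a lower change in SKBR3. TRIM14, an adaptor of RNA sensing, measured 7.80 and 7.73 and then 9.48 and 9.43 in SKBR3, and 7.92, 8.0 and 7.97 and then 8.55, 8.58 and 8.67 in MDA-468. EIF2AK2, the kinase PKR, rose by 2.40 and 1.55. IFI6, an interferon-induced mitochondrial protein, was the exception, at 5.49 in SKBR3 and 5.93 in MDA-468 (difference -0.44). The count of higher calls fell to 2 without SKBR3 siControl replicate 2 and with a variance for each group, and the list's median difference of 0.14 turned to -0.13 after quantile normalization over all arrays.

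Class I antigen presentation genes had 7 of 9 co-expressed members called with a higher change in SKBR3 and 0 with a lower one; 8 rose in each line. The median change was 1.45 in SKBR3 and 0.61 in MDA-468. ERAP1, which trims peptides for class I molecules, measured 7.48 and 7.47 and then 9.31 and 9.04 in SKBR3, and 9.14, 9.10 and 9.07 and then 9.27, 9.38 and 9.38 in MDA-468, where it started higher. With siChe-1 the lines therefore reached similar ERAP1 levels. PSMB10, an immunoproteasome subunit, rose by 2.12 and 0.69. TAP1 and TAP2, the peptide transporter, rose by 3.23 and 2.71, and by 2.37 and 1.55, in SKBR3 and MDA-468 respectively. Over the fits with 1 array left out, 5 to 7 members were called higher and 0 lower; quantile normalization over all arrays gave 6 and 1.

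NF-kappaB factors and targets had 1 of 17 called higher and 7 lower, with a median difference of -0.29. RELB, an NF-kappaB subunit, measured 7.22 and 7.08 and then 7.5 and 7.54 in SKBR3, and 7.29, 7.17 and 7.28 and then 8.69, 8.57 and 8.54 in MDA-468. TNFAIP2, a TNF-induced protein, rose by 0.49 and 1.45. The inhibitor NFKBIA was the member with a higher change in SKBR3, 1.30 against 0.79. BIRC2, a ubiquitin ligase that restrains cell death, changed by -0.16 and 0.62; its call was lost in 6 of the 10 fits with 1 array left out. It was also the one called member of 26 co-expressed apoptosis regulators, among which 0 were called higher (limma).

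Of 27 co-expressed immediate early genes, 21 rose in SKBR3 and 22 in MDA-468, and 2 were called higher and 5 lower for the difference. KLF6, a Krueppel-like factor, measured 8.62 and 8.60 and then 9.13 and 9.03 in SKBR3, and 8.45, 8.27 and 8.40 and then 10.28, 10.33 and 10.36 in MDA-468. KLF4 rose by 2.09 and 3.38, and DUSP1, a phosphatase of MAP kinases, by 0.85 and 1.87. BTG1, an antiproliferative factor, went in opposite directions, at 0.51 and -0.27.

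YAP and TEAD target genes had 9 of 12 members called lower and 1 higher, with 11 rising in MDA-468 and 3 in SKBR3. The median change was 0.01 in SKBR3 and 0.77 in MDA-468. GADD45A, a growth arrest gene that p53 also targets, measured 7.91 and 7.83 and then 8.34 and 8.07 in SKBR3, and 10.03, 10.06 and 10.03 and then 11.82, 11.96 and 12.03 in MDA-468. AMOTL2, AJUBA and LATS2, regulators within the Hippo pathway, rose by 0.94, 0.71 and 0.79 in MDA-468, with 0.23, -0.20 and 0.30 in SKBR3. CCN1, a matricellular protein, was the exception, at 1.69 in SKBR3 and 0.80 in MDA-468. With 1 array left out, 8 or 9 members were called lower and 1 higher.

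Of 34 integrin, matrix and plasminogen genes, 3 were called higher and 8 lower, with ITGAV, the alpha V subunit, at -0.70 and 0.38 and TPM1, a tropomyosin, at -0.42 and 0.84. The metalloproteinase inhibitor TIMP1 was among the 3, at -0.02 and -0.99. Of 30 keratin and junction genes, 3 were called higher and 7 lower: the desmosomal genes PKP2, DSG2 and DSC2 changed by -0.51, -0.56 and -0.47 in SKBR3 and by 0.46, 0.31 and 0.26 in MDA-468. Beside these changes, the mean over 7 MDA-468 and basal markers measured was 9.22 to 9.34 with siControl and 10.30 to 10.32 with siChe-1 in MDA-468, and 6.81 to 6.91 and then 7.19 to 7.35 in SKBR3; the part of these markers in the adhesion, keratin and YAP counts was not tested. KRT14, a basal keratin, changed by 0.32 and 1.95, and KRT80 by -0.15 and 0.99. Of 24 ERBB genes, 2 were called higher and 4 lower. ERRFI1, a feedback inhibitor of EGFR, changed by -0.03 in SKBR3 and 1.22 in MDA-468, and LRIG1, another inhibitor, by -0.12 and -1.16. Without SKBR3 siChe-1 replicate 1, 11 keratin and junction genes and 11 ERBB genes were called lower.

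Genes in the neighbourhood of ERBB2, a region amplified in SKBR3, had 1 of 29 called higher and 4 lower. NR1D1, the circadian repressor REV-ERB alpha, rose by 0.40 and 1.34, and TNS4, a focal adhesion protein, changed by 0.23 and 0.89.

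Respiratory chain and ribosome genes fell in MDA-468 more than in SKBR3. Of 66 co-expressed oxidative phosphorylation subunits, 61 fell in MDA-468 and 8 in SKBR3 (27.0% and 17.1% of all genes tested), and 25 were called higher and 0 lower for the difference. The median change was -0.12 in SKBR3 and -0.51 in MDA-468. NDUFA11, a subunit of complex I, measured 9.09 and 9.06 and then 9.14 and 9.12 in SKBR3, and 9.23, 9.24 and 9.11 and then 8.66, 8.71 and 8.50 in MDA-468. With 1 array left out the higher calls ranged from 8, without SKBR3 siControl replicate 1, to 29, without SKBR3 siChe-1 replicate 1, and with a variance for each group there were 6; the median difference stayed between 0.33 and 0.42 over the fits with 1 array left out.

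Cytosolic ribosomal proteins had 17 of 58 called higher and 0 lower, with 50 falling in MDA-468 and 3 in SKBR3, and medians of -0.42 and -0.08. RPS9 measured 11.81, 12.02 and 11.63 with siControl and 11.11, 11.11 and 10.98 with siChe-1 in MDA-468, and 11.93 and 12 and then 11.999 and 12.23 in SKBR3. RPL23 fell in both lines, by 0.31 in SKBR3 and by 0.94 in MDA-468. The higher calls ranged from 6, without MDA-468 siControl replicate 2 or SKBR3 siControl replicate 1, to 21, without SKBR3 siChe-1 replicate 1, and were 5 with a variance for each group. Probes of ribosomal protein genes can also pick up their processed copies.

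Mitochondrial ribosomal proteins had 10 of 72 called higher and 0 lower, MRPS34 at -0.19 and -0.79 and MRPL53 at -0.12 and -0.60. Both calls, and the 10 in all, were lost with a variance for each group, and 2 were left without either SKBR3 siControl array. Of 45 translation factors, 6 were called higher and 0 lower, among them PABPC4, a poly(A)-binding protein, at -0.17 and -1.05, and EIF2B4, a subunit of the eIF2 exchange factor, at -0.17 and -0.83; the higher calls of this list were 3 to 10 with 1 array left out, the most without SKBR3 siChe-1 replicate 1. Ribosome biogenesis factors, to which AATF belongs, had 6 of 84 called higher and 2 lower. NHP2, a protein of box H/ACA particles, changed by -0.11 and -0.91, and the count of lower calls was 14 without SKBR3 siChe-1 replicate 1.

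Of 37 cholesterol and fatty acid synthesis genes, 28 fell in MDA-468 and 13 in SKBR3 (27.0% and 17.1% of all genes tested). For the difference, 16 were called higher and 2 lower. INSIG1, which holds back the sterol-sensing complex, measured 10.04, 10.10 and 9.95 with siControl and 8.81, 8.96 and 8.90 with siChe-1 in MDA-468, and 8.56 and 8.27 and then 8.38 and 8.15 in SKBR3. SCD, the stearoyl-CoA desaturase, fell by 1.51 and FASN, the fatty acid synthase, by 1.03 in MDA-468, with -0.23 and -0.29 in SKBR3. ACSL1, a fatty acid CoA ligase, rose in SKBR3 by 1.09 and changed by -0.14 in MDA-468. Higher calls numbered 8 without SKBR3 siControl replicate 2 and 9 with a variance for each group.

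Of 35 NRF2, thioredoxin and glutathione genes, 13 were called higher and 4 lower. CAT, catalase, fell by 0.52 in SKBR3 and by 1.38 in MDA-468, and NQO1, a quinone reductase, by 0.36 and by 1.17. The cystine carrier SLC7A11 went the other way, at -0.44 and 0.68. Higher calls numbered 6 without SKBR3 siControl replicate 2 and with a variance for each group, and the median difference of 0.21 was 0.03 without SKBR3 siChe-1 replicate 1. LDHB, a lactate dehydrogenase subunit, changed by -0.25 and -1.20 among 33 glycolysis and hypoxia genes, of which 2 were called higher and 4 lower, PFKM, the muscle phosphofructokinase, among the latter at -0.59 and 0.25.

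Genes of the integrated stress response divided, with 6 of 30 called higher and 6 lower. NUPR1, PPP1R15A and CEBPB were higher in SKBR3, CEBPB at 1.18 against 0.33. CTH, SLC7A11 and DDIT3, the factor CHOP, were lower, DDIT3 at 0.13 against 1.21. Beside WARS1, the synthetase QARS1 changed by -0.35 and -0.79, and 1 of 20 cytosolic synthetases was called higher and 2 lower. Without SKBR3 siChe-1 replicate 1, 10 stress response genes and 6 synthetases were called lower. Endoplasmic reticulum folding genes had 6 of 60 called higher and 4 lower, with 3 and 0 without SKBR3 siControl replicate 2 and 6 and 14 without SKBR3 siChe-1 replicate 1. AGR2, a disulfide isomerase of secretory cells, fell by 0.90 and by 2.04. Its means went from 7.485 to 6.587 in SKBR3 and from 8.888 to 6.850 in MDA-468, so the lines ended at similar low levels. SSR2, a subunit of the translocon-associated complex, fell by 0.26 and by 0.98.

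Mitotic genes fell in both lines. Of 57 co-expressed G2/M and mitosis genes, 52 fell in SKBR3 and 41 in MDA-468 (17.1% and 27.0% of all genes tested). The medians were -0.72 and -0.52, and 10 were called lower and 0 higher for the difference (limma). ASPM, a spindle pole protein, measured 9.66 and 9.90 and then 8.83 and 8.49 in SKBR3, and 10.37, 10.34 and 10.33 and then 10.38, 10.46 and 10.57 in MDA-468. KIF23, a kinesin of cytokinesis, fell by 0.81 in SKBR3 and changed by 0.02 in MDA-468. The lean depended on the SKBR3 arrays: 24 were called lower without siChe-1 replicate 1, 3 without siControl replicate 2, and without siChe-1 replicate 2 7 were called higher and 5 lower, with a median difference of 0.02 in place of -0.18.

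DNA repair genes had 3 of 44 called higher and 10 lower. XPA, a nucleotide excision repair protein, changed by -0.48 and 0.17, RAD52, a recombination mediator, by -0.26 and 0.47, and TOPBP1, a checkpoint scaffold, by -0.41 and 0.29. The lower calls were 22 without SKBR3 siChe-1 replicate 1, 6 without replicate 2, 3 without SKBR3 siControl replicate 2 and 5 with a variance for each group. Of 60 G1/S and replication genes, 7 were called higher and 5 lower, with CHAF1B, a chromatin assembly subunit, at 0.26 and -0.31 and ORC3, an origin recognition subunit, at -0.43 and 0.43. With 1 array left out, 2 to 8 of these 60 were called higher and 1 to 15 lower, with 2 and 1 without SKBR3 siControl replicate 2 and 6 and 15 without SKBR3 siChe-1 replicate 1. Of 28 histone genes, 6 were called lower and 0 higher (limma), among them H2BC11 at 0.27 and 1.27. In MDA-468, 11 of the 28 rose, beside 16.4% of all genes tested. Of 19 p53 targets, 2 were called higher and 2 lower, TP53I3, a quinone oxidoreductase, at 0.14 and -0.73. The siControl mean of TP53I3 was 7.03 in SKBR3, close to the level that chose the genes, and 9.09 in MDA-468.

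Proteasome subunits had 5 of 39 called higher and 1 lower, PSMA6 at 0.59 and -0.02 and PSMD5, an assembly chaperone, at -0.53 and -1.28. Autophagy and mTOR genes had 8 of 48 higher and 3 lower, with OPTN, an autophagy receptor, at 2.24 and 1.07 and RICTOR, which defines mTOR complex 2, at 0.14 and 1.23. Chaperones had 4 of 41 higher and 1 lower, BAG1, a co-chaperone, at 0.35 and -0.45. Nuclear RNA polymerase genes had 6 of 41 higher and 3 lower, POLR2B, the second largest subunit of the polymerase that Che-1 binds, at -0.25 and -0.81 and TBP at -0.36 and 0.29. Splicing genes had 7 of 69 higher and 2 lower, SF3B5 at -0.01 and -0.95 and LSM2 at 0.00 and -0.97. Without SKBR3 siChe-1 replicate 1, 7 proteasome, 11 autophagy, 4 chaperone, 9 polymerase and 10 splicing genes were called lower. Without SKBR3 siControl replicate 2, 0, 2, 0, 1 and 0 were called lower, and 5, 4, 2, 4 and 2 higher. TNFRSF10A, a TRAIL receptor, changed by 0.41 and 0.79, a difference that was not called (adjusted p = 0.0504).

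**Figure D4:**
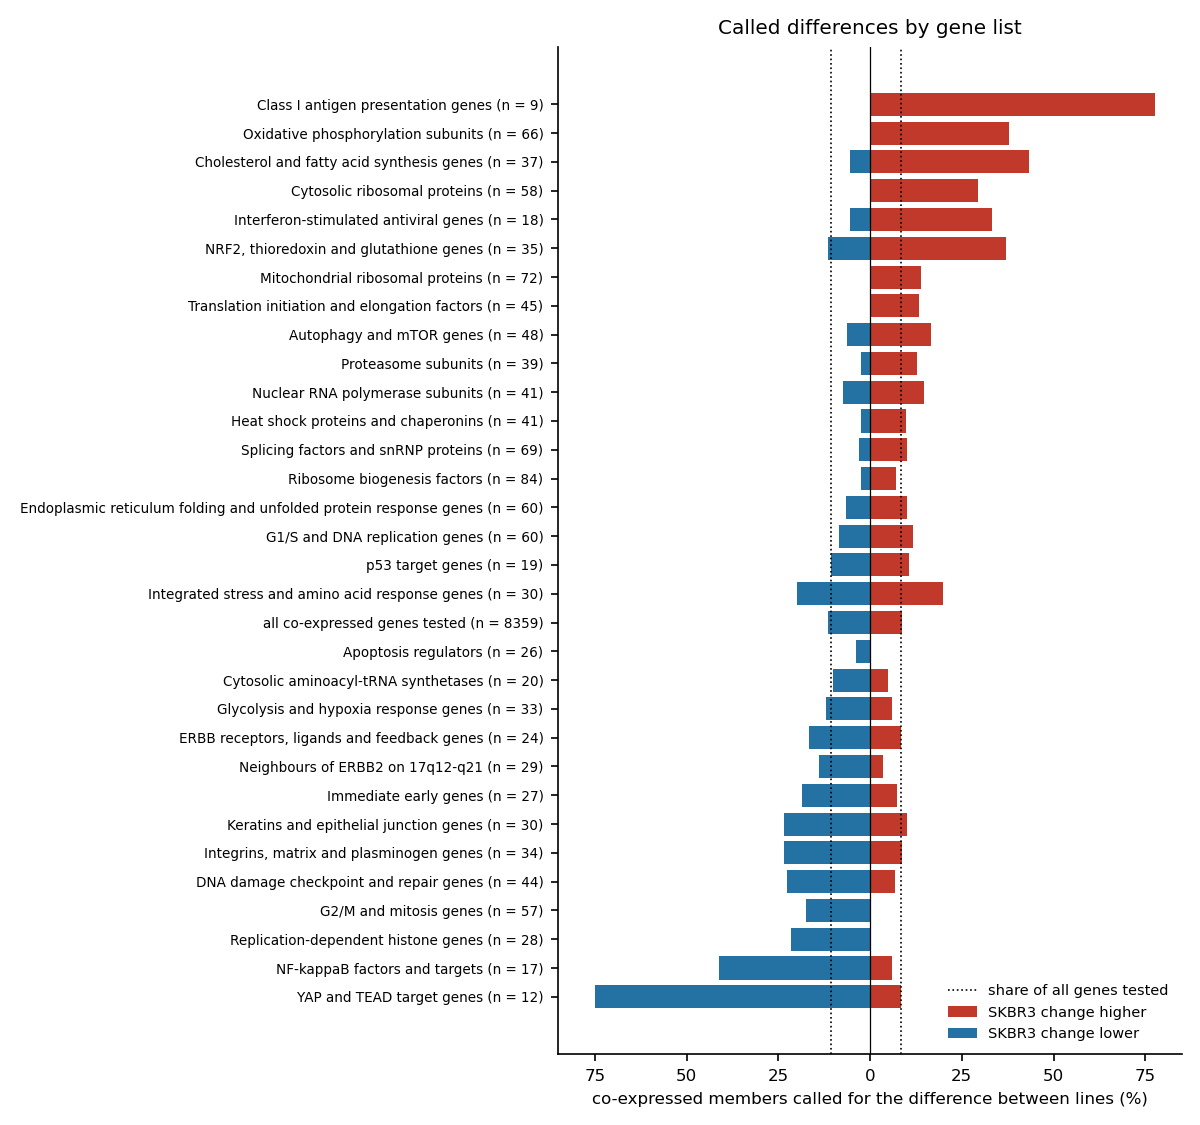
Bars give, for each gene list, the percentage of its co-expressed members called with a higher (red, to the right) or lower (blue, to the left) change in SKBR3 than in MDA-468, with the number of co-expressed members in brackets; dotted lines mark the shares over all genes tested, 8.49% and 10.7%. Class I antigen presentation (7 of 9 higher) and YAP and TEAD targets (9 of 12 lower) have the longest bars.

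Gene span, the distance from start to end of the gene in RefSeq (GRCh38.p14), varied with the direction of the difference. Among the 8078 protein-coding co-expressed genes, the median span was 28.4 kb for those not called, 17.9 kb for those called higher, 59.2 kb for those called lower and 82.7 kb for the 110 that fell in SKBR3 and rose in MDA-468. In 5 equal bins of span, from at most 9.4 kb to over 86.4 kb, the share called higher was 15.2, 8.85, 7.18, 5.51 and 7.18%, and the share called lower 4.52, 6.69, 10.3, 16.0 and 21.5%. The median SKBR3 change was -0.04 in the shortest and -0.22 in the longest bin, while that of MDA-468 was -0.17 and -0.01. Without SKBR3 siChe-1 replicate 2 the SKBR3 medians were -0.07 and -0.12 and the shares called lower 3.84 and 16.6%; without replicate 1 they were -0.03 and -0.32, and 8.35 and 40.3%. After quantile normalization over all arrays, the median of the shortest bin in SKBR3 was 0.004 and that of the longest bin in MDA-468 was 0.02, both on the other side of 0. The part of span in the list counts was not tested.

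**Figure D5:**
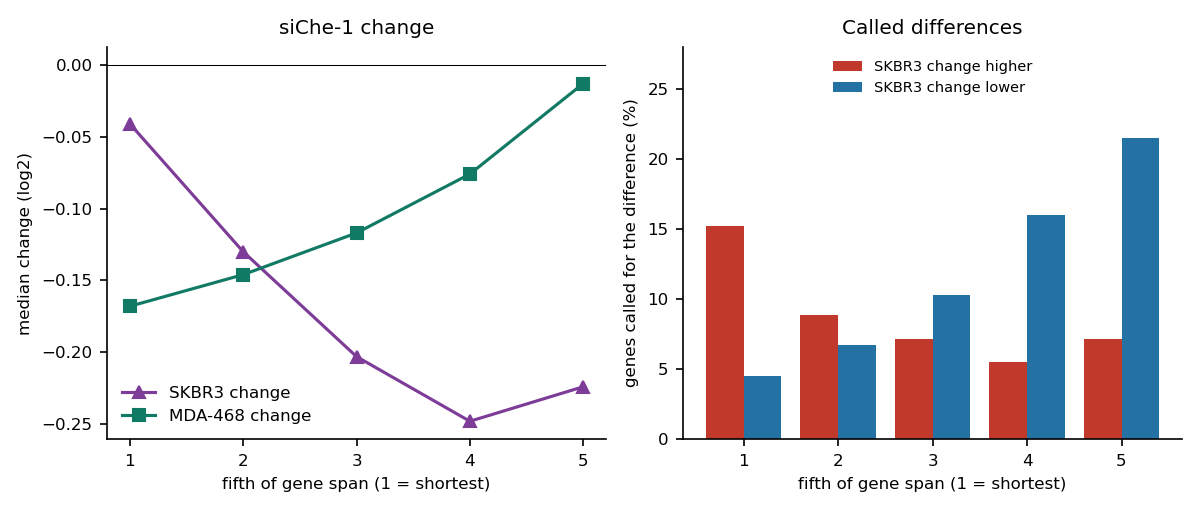
The left plot gives the median siChe-1 change (log2) in SKBR3 (triangles) and MDA-468 (squares) by bin of RefSeq gene span (5 equal bins, 1 being the shortest), over 8078 protein-coding co-expressed genes; the right plot gives the percentage of each bin called with a higher or lower change in SKBR3. The median falls from -0.04 to -0.22 in SKBR3 and climbs from -0.17 to -0.01 in MDA-468, and the share called lower climbs from 4.52 to 21.5%.

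Start levels bear on the comparison too. Among the 3819 co-expressed genes whose siControl means differed by at most 0.5 between the lines, 703 (18.4%) were called, 282 higher and 421 lower. At the level that chose the genes, PLXND1 and KIAA0753 lay just inside, with SKBR3 siControl means that round to 7.0. HCG27, at 7.0 in SKBR3 and 7.12 in MDA-468, and SULT1A1, at 7.32 and 7.0, lay just outside. Their differences were 0.24, -0.21, -0.30 and -0.20.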

How the data were processed

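Expression was measured in 10 arrays. The deposited values are log2 expression values per probe set, which, per the submitters' processing notes, the authors made with RMA (Affymetrix Expression Console). Its version, the build and the set of arrays normalized as one are not stated in these sources. Of the probe sets, 19460 had 1 gene symbol, and the one with the highest mean stood for its gene. Genes under the 30th percentile of means (6.031) were left out of the fit.

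The 4 groups were fitted as means in limma 3.58.1 (R 4.3.3; 6 residual and 4.92 prior degrees of freedom) with Benjamini-Hochberg adjustment over 12892 genes. Precision is limited by the number of arrays. The fit was also run on simulated data in which each gene had the same SD in every group. Unequal spread between the groups was therefore not tested there. Members and gene lists were chosen with earlier results of these data known.

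Named genes were the 10 highest and 10 lowest called differences, the 6 opposite-direction genes each way with the largest smaller change, the 6 each way changed in 1 line, 8 alike, 2 per list and 4 at the level of 7; other names were chosen after their values were seen. Alternatives covered the filter, normalization, variance model, threshold, start level, replicate block and each array left out.

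The labels do not say whether replicate numbers pair the arrays, and the reported fit treated the arrays as unpaired. Each array's deviations from its group mean, gene by gene, were correlated between siControl and siChe-1. Same-numbered arrays gave -0.556 in SKBR3 and from -0.491 to 0.002 in MDA-468. Arrays with different numbers gave 0.556 in SKBR3 and from -0.202 to 0.444 in MDA-468. With 2 arrays per SKBR3 group, deviations are mirror images, so the values there can differ only in sign. With so few arrays these correlations cannot decide whether the arrays were paired.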

Additional observations from a re-analysis of the deposited data

Results flagged for a closer look

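The test of the difference between the lines itself, an interaction term in limma, set these results apart. It called 1693 of the 8359 co-expressed genes. Among the 100 co-expressed genes named by rule it called 89, given here as SKBR3 minus MDA-468 in log2 units.

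A higher change in SKBR3 was called for REXO1L1P (2.57), CYP4Z1 (2.29), SCGB2A2 (1.92), CRISP3 (1.88), NUPR1 (1.75), SELENOP (1.75), SAMHD1 (1.66) and CREB3L4 (1.62). These were followed by HSD17B2 (1.61), IFNL3 (1.61), SNORD14E (1.60), LMNB1 (1.59), HSPA2 (1.57), ARRDC3 (1.52), PPP1R15A (1.52) and COX8A (1.47). Further down were ERAP1 (1.46), FTL (1.46), PSMB10 (1.43), RNVU1-15 (1.40), RNVU1-19 (1.31), ACSL1 (1.23), RNU4ATAC (1.20) and OPTN (1.18). Then came AGR2 (1.14), AATF (1.05), TRIM14 (1.05), LRIG1 (1.04), TERC (1.01), TMEM150A (1.01), INSIG1 (0.99) and LSM2 (0.97). Smaller values belonged to LDHB (0.95), SF3B5 (0.94), RPS9 (0.90), PABPC4 (0.89), TP53I3 (0.87), CAT (0.85), EIF2AK2 (0.85) and NHP2 (0.81). The list went on with BAG1 (0.80), PSMD5 (0.75), SSR2 (0.71), EIF2B4 (0.66), NDUFA11 (0.63), RPL23 (0.63), PSMA6 (0.61) and MRPS34 (0.60). Next came CHAF1B (0.57), POLR2B (0.56), MRPL53 (0.48) and QARS1 (0.44).

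A lower change in SKBR3 was called for ADGRV1 (-2.51), CTH (-2.51), F3 (-2.30), LIPH (-2.27), ITGA2 (-2.00), NOCT (-1.89), H4C8 (-1.88) and WARS1 (-1.87). These were followed by KLF10 (-1.79), H2AC25 (-1.78), UTRN (-1.72), TIPARP (-1.66), KIFC3 (-1.60), CLIP1 (-1.59), GADD45A (-1.56) and KLF6 (-1.48). Further down were H2BC5 (-1.42), CYTH3 (-1.32), RAD51AP1 (-1.29), TPM1 (-1.26), ASPM (-1.24), ERRFI1 (-1.24), KRT80 (-1.14) and RICTOR (-1.09). Then came H2BC11 (-1.0), RELB (-0.99), PKP2 (-0.97), TNFAIP2 (-0.96), NR1D1 (-0.94), ORC3 (-0.85), PFKM (-0.84) and KIF23 (-0.83). Smaller values belonged to BIRC2 (-0.77), RAD52 (-0.73), TNS4 (-0.67), XPA (-0.65) and TBP (-0.64).

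Groups of 2 and 3 arrays are too small for a test of single outlying arrays. AATF itself is among these genes, so the depth of its fall and the line cannot be told apart in any of them.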

How the results depend on the processing

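The 1693 called differences, 2356 SKBR3 calls, 4152 MDA-468 calls and 126 opposite calls were recomputed under 25 alternatives. With a variance for each group there were 985 differences, 796 SKBR3 calls and 35 opposite calls, while MDA-468 calls rose to 5018. Testing against a 1.5-fold change gave 101, 128, 461 and 0. Start levels at most 0.5 apart left 703, 926, 1740 and 53, over fewer genes. No filter gave 79 opposite calls. With 1 array left out, differences ranged from 910 to 2906, SKBR3 calls from 898 to 4006, MDA-468 calls from 3350 to 4809 and opposite calls from 30 to 425. Higher calls were 43.2% of the differences, 28.2% without SKBR3 siChe-1 replicate 1 and 57.9% without replicate 2; the cause was not tested. Calls shared with the reported fit kept their direction in every alternative. All alternatives reuse these arrays, so a turn among shared calls was hardly possible and this is no support.

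With the replicate number as a block, 647 differences were called, 300 higher and 347 lower. That fit gave 854 SKBR3 calls, 3252 MDA-468 calls and 20 opposite calls. Whether the numbers pair the arrays is not known. Crossing the SKBR3 numbers, an alternative chosen after seeing the data, gave 1727 differences, 710 higher and 1017 lower.

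Of the 100 co-expressed genes named by rule, 89 were called and 44 stayed called under every alternative that kept them. The 1.5-fold threshold ended 45 calls, the replicate block 9 and a variance for each group 5. No called value changed sign, which says little, as every alternative reuses these arrays. With 2 arrays in each SKBR3 group, 1 array can move a count several times over, and values near background have no separate detection call here.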
